A study of Mus musculus with 24 samples.

Results

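Interferon-stimulated genes are the genes a cell turns on when its receptors bind interferon, and the list described here holds 48 of them, each found by its symbol among the 23991 gene symbols of the expression tables. The 24 libraries, in 8 groups of 3, were made from RNA of bone marrow cells of C57BL/6 mice. The cells were sorted by flow cytometry into GMP, the progenitors of granulocytes and macrophages, and LSK, the Lin-Sca1+cKit+ gate in which stem cells and multipotent progenitors are found. In each population there were 4 genotypes: IRE1_KO_ITD mice carried Ern1(fl/fl), VavCre and Flt3-ITD, ITD mice carried Flt3-ITD alone, IRE1_KO mice carried Ern1(fl/fl) and VavCre, and WT mice were wild type. Flt3-ITD is an internal tandem duplication that leaves the growth factor receptor FLT3 active without its ligand and is a common mutation of human acute myeloid leukaemia. Ern1 encodes IRE1α, the endoplasmic reticulum stress sensor that splices Xbp1 mRNA, and VavCre is a recombinase made in cells of all blood lineages. The labels give no age, no count of Flt3-ITD alleles and no exon removed from Ern1, and they do not give WT or ITD mice VavCre or a floxed allele. They also do not say that the 3 libraries of a group came from separate mice, so that the p-values measure the spread between libraries. How much of that spread is technical is unknown. By Xist and Y-linked genes, every group except ITD GMP and ITD LSK held both sexes, and so more than a single mouse.

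Type I interferons signal through the receptor subunits IFNAR1 and IFNAR2 and the kinases JAK1 and TYK2 to a complex that holds STAT2 and IRF9 and binds the interferon-stimulated response element (ISRE). Interferon gamma signals through its own receptor to factors that bind the gamma-activated site (GAS). The induced genes encode the transducers themselves, sensors of foreign RNA, antiviral enzymes, the modifier ISG15 and large families of GTPases. Stem cells are known to hold many of these genes at a raised level without infection, and to lower them as they differentiate.

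Promoter sequences of 300 bases, from 250 before to 50 after the transcription start, were found in RefSeq's table (build GRCm38.p6) for 35 of the 48 genes. Those not matched were Dhx58, Zbp1, Oas2, Mx1, Mx2, Usp18, Parp9, Parp14, Iigp1, Ifi27l2a, Ifi27, Rtp4 and Ly6e. The ISRE was searched on both strands as GAAA and GAAA parted by any 2 bases and the GAS as TTCNNNGAA, which reads the same on both strands. At least 1 ISRE was present in 19 of the 35 genes, against 3.99% of the 27025 genes in that table. A GAS was present in 10 of the 35, against 9.55% of genes, and both motifs in 6, against 0.614% of genes. The 6 promoters below are shown because their genes carry the 2 contrasting patterns described further on: Isg15, Ifit3 and Oas1a are a ubiquitin-like modifier, an RNA-binding protein and an antiviral enzyme, and Igtp, Irgm2 and Gbp7 are GTPases. Capitals mark the motifs, and a match is a description of letters, not of a bound site.
Isg15, chr4:156200769-156201068, minus strand: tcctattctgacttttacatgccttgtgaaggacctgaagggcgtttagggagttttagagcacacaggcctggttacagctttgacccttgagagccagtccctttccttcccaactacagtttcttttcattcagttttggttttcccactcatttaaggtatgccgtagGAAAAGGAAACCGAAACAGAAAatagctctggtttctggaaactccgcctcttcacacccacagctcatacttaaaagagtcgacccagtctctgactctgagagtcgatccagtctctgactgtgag
Ifit3, chr19:34583279-34583578, plus strand: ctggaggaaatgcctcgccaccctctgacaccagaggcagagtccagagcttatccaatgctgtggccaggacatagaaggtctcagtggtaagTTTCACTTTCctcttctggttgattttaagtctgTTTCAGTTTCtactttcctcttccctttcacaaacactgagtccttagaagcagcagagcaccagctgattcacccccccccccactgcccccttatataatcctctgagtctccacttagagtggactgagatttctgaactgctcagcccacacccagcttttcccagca
Oas1a, chr5:120907476-120907775, minus strand: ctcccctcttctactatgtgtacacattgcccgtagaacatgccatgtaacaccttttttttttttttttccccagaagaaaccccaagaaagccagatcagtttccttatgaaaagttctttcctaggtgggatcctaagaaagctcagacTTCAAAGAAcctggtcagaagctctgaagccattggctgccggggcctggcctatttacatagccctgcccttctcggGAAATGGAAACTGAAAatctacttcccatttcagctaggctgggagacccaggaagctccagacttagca
Igtp, chr11:58199306-58199605, plus strand: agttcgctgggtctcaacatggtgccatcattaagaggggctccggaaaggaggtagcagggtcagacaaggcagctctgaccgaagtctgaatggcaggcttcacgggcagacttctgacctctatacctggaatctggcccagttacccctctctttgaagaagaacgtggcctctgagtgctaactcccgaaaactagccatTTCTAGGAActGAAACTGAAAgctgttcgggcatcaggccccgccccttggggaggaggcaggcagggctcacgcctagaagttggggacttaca
Irgm2, chr11:58214727-58215026, plus strand: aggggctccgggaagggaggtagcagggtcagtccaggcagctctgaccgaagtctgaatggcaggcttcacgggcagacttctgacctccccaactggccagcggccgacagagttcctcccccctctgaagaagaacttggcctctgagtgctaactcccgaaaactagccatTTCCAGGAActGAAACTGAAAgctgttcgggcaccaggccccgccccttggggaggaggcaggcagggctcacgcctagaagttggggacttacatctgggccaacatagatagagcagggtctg
Gbp7, chr3:142530086-142530385, plus strand: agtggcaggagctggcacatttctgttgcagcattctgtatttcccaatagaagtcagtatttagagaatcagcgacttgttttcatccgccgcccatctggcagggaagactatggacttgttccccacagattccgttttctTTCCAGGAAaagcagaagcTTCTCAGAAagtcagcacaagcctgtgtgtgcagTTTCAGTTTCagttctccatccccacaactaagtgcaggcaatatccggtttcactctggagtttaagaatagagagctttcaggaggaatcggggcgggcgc
The Isg15 window holds 3 ISRE matches that overlap one another, and the Ifit3 window holds 2 that do not and no GAS. The Oas1a window holds 1 GAS and 2 overlapping ISRE matches. In both Igtp and Irgm2 a GAS precedes an ISRE whose first base lies 11 bases after that of the GAS, and Gbp7 holds 2 GAS matches and 1 ISRE. Of the 7 GTPase genes with a promoter in the table, 6 held an ISRE and 3 held both motifs.

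Values are FPKM, the fragments of a gene scaled by its length and by the depth of the library. Between 10436 and 10831 genes reached 1 FPKM in a GMP library and between 11119 and 11471 in an LSK library. How many reads stand behind each library is unknown. GMP markers summed to 18870 to 31700 FPKM in GMP libraries and 1065 to 3454 FPKM in LSK libraries, and LSK markers to 168 to 316 FPKM in GMP and 731 to 1173 FPKM in LSK. Ern1 itself was listed at 17.9 to 33.2 FPKM in the GMP libraries and 6.64 to 12.9 FPKM in the LSK libraries of the 2 Ern1-floxed genotypes, against 7.58 to 16.0 FPKM and 3.73 to 7.56 FPKM in the other genotypes. A value over the whole gene cannot show the loss of part of it, so it does not check those labels. The genotypes are therefore given as labelled. Sva, a gene singled out after its values were seen, was at 3.76 to 9.51 FPKM in all 12 libraries labelled with Ern1(fl/fl) and at no more than 0.0699 FPKM in the other 12. By Xist and Y-linked genes, ITD libraries were all female and every other genotype was mixed. A 1ng tag stands in the column headers of all 3 libraries of IRE1_KO LSK and in no other header.

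In each population the ITD library labelled replicate 1 stood apart from the others of its group, and it bears on every comparison with ITD. The labels do not say whether these libraries of GMP and LSK came from the same mouse. ITD replicate 1 had the lowest value of its group for 43 of the 48 genes in GMP, where it was lowest for 25.9% and highest for 56.5% of all genes. In LSK it was lowest for 41 of the 48 and for 38.5% of all genes. Rank alone does not set it apart, since replicate 2 was lowest for 39 genes in IRE1_KO LSK and 36 in WT LSK. The mean over the 48 genes, on the log2(FPKM + 1) scale, deviated from its group mean by -0.726 in ITD GMP replicate 1 and -0.472 in ITD LSK replicate 1. It deviated by -0.2 and -0.169 in those 2 other libraries. Ifi27l2a is an example, with 8.502, 329.6 and 260.2 FPKM in ITD GMP replicates 1, 2 and 3 and 56.7, 335 and 339 FPKM in ITD LSK replicates 1, 2 and 3. Sva was at 0 in ITD replicate 1 of both populations. Counts are given with all libraries and, where that changes them by more than 1.5 times, without ITD replicate 1. That replicate was singled out by its values for these same genes. Counts without it therefore show only how far a result rests on it, and have no share of all genes beside them.

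The mean level of the 48 genes was lower in GMP than in LSK of the same genotype, and in each population its group mean was lowest in the double mutant. On the log2(FPKM + 1) scale the mean over the 48 genes was 2.51 ± 0.09 in IRE1_KO_ITD, 3.29 ± 0.63 in ITD, 2.999 ± 0.15 in IRE1_KO and 3.02 ± 0.11 in WT GMP (SD, n = 3 libraries each). In LSK it was 3.25 ± 0.04 in IRE1_KO_ITD, 4.25 ± 0.43 in ITD, 4.38 ± 0.18 in IRE1_KO and 4.27 ± 0.15 in WT. The IRE1_KO and WT groups overlapped in both populations. All 3 IRE1_KO_ITD LSK libraries lay below each of the other 9 LSK libraries, and in GMP they shared their range with ITD replicate 1, at 2.56. A mean over all genes did not follow this order, at 3.49 to 3.57 in IRE1_KO_ITD GMP against 3.36 to 3.41 in WT GMP, and 3.64 to 3.68 in IRE1_KO_ITD LSK against 3.49 to 3.56 in WT LSK.

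**Figure D1:**
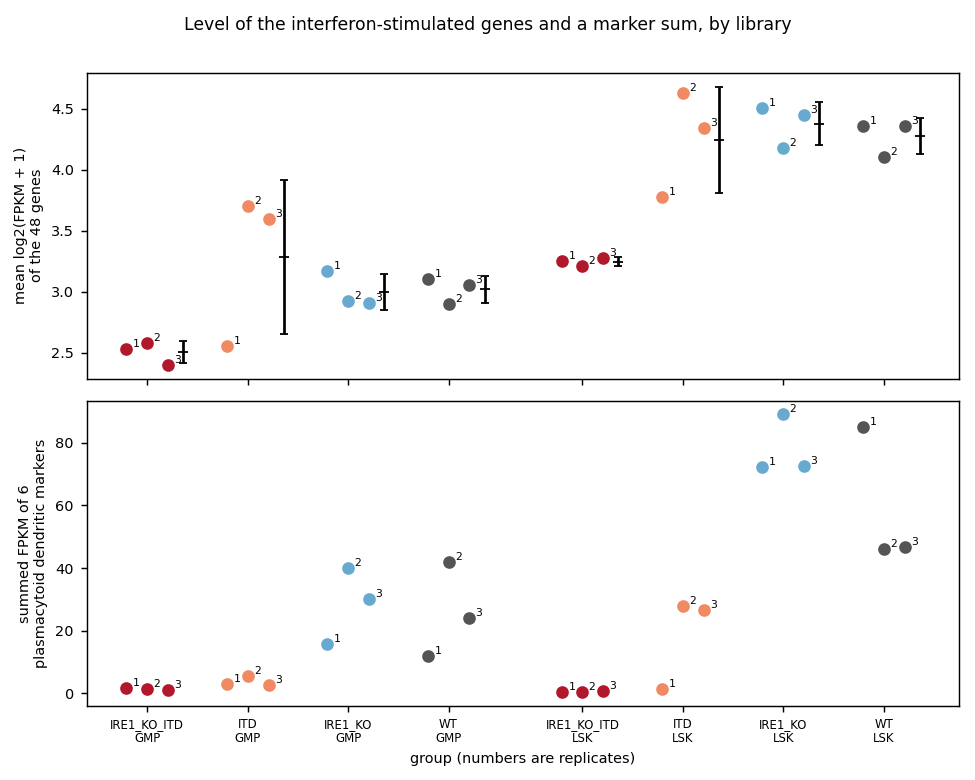
Upper panel: the mean of log2(FPKM + 1) over the 48 interferon-stimulated genes in each library (points, numbered by replicate), with the group mean and SD beside them. Lower panel: the summed FPKM of 6 marker genes of plasmacytoid dendritic cells in the same libraries. ITD replicate 1 lies below ITD replicates 2 and 3 in both populations of the upper panel, and its marker sum in LSK is 1.42 FPKM, against 28.0 and 26.5 FPKM in replicates 2 and 3.

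The genes ranged widely in level. Ly6e, a membrane-anchored surface protein, was the most abundant by group means, at 404 to 959.7 FPKM across the 24 libraries. Bst2, which tethers budding virus to the cell surface, led the antiviral effectors at 58.6 to 171 FPKM. By the mean over the 24 libraries, the most abundant of the other roles were Ifi47 among the GTPases (43.9 to 81.1 FPKM), Oas1a of the OAS family, Irf9 of the transducers, Isg15 of the ISG15 group, Dhx58 of the RNA sensors and Ifit2 of the IFIT family. That order did not hold in every group: in WT LSK, for example, Irf7 averaged 44.8 FPKM and Irf9 41.1 FPKM, and Ifit1 averaged 8.03 FPKM and Ifit2 5.83 FPKM. Ifit2 stayed between 2.93 and 9.38 FPKM. In GMP, Ifit3, Mx2, Iigp1, Ifi44 and Slfn5 did not reach 1 FPKM in 3 libraries, so that 43 of the 48 genes were tested between GMP genotypes and all 48 in LSK. Mx1 and Mx2 are known to carry inactivating mutations in C57BL/6 mice and their values describe the transcripts only. Ifi27l2a overlaps Ifi27 on chromosome 12 and Parp9 overlaps Dtx3l on chromosome 16. How reads were assigned between such neighbours, and between close relatives in the OAS, IFIT and GTPase families, was not stated, so that the split between them is uncertain.

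Wild-type GMP held these genes at a lower level than wild-type LSK. A single gene rose, 36 fell and 11 of the 48 did not pass (limma with a mean-variance trend on log2(FPKM + 1), Benjamini-Hochberg adjusted p under 0.05 over 12348 genes), against 19.0% of all tested genes higher and 31.3% lower. The median log2 fold change of the 48 genes was -1.06, against -0.11 over all genes tested. In a bulk sample, fewer cells of a type and less RNA per cell cannot be told apart, here and in every comparison that follows.

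Ifi44, which is named for its induction by interferon, had the lowest fold change. It had 0.913, 0.315 and 0.473 FPKM in WT GMP, against 17.1, 13.7 and 16.4 FPKM in WT LSK, a log2 fold change of -3.43 ± 0.38 (adjusted p = 5.73e-07). The transducer Irf7, which drives interferon genes, had 5.78, 2.75 and 3.21 FPKM in WT GMP, against 50.3, 37.7 and 46.6 FPKM in WT LSK (-3.26 ± 0.43, adjusted p = 4.61e-06). Neither gene overlapped between the 2 populations. Irf9 fell by 1.26 ± 0.28 and Stat2 had a log2 fold change of -0.35 ± 0.24 that did not pass (adjusted p = 0.229). Rtp4, a receptor chaperone, had 5.83, 4.95 and 5.601 FPKM in WT GMP, against 62.6, 47.7 and 59.9 FPKM in WT LSK (-3.15 ± 0.43).

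Most roles took part. All 5 genes of the ISG15 group fell, with Isg15 at -2.14 ± 0.41, its deconjugating protease Usp18 at -2.01 ± 0.44 and Parp9, a partner of the ubiquitin ligase Dtx3l, at -1.01 ± 0.18. Of the RNA sensors 5 of 6 fell, led by Ddx58, which encodes RIG-I, at -1.75 ± 0.23. Of the OAS family, whose products switch on RNase L, 4 of 5 fell, with Oasl2 at -2.70 ± 0.33, Oas3 at -2.34 ± 0.33 and Oas2 at -2.29 ± 0.47. Ifit1 and Ifit3 fell by 2.11 ± 0.30 and 1.58 ± 0.26, and Ifit2 did not pass at -0.18 ± 0.19. Of the other antiviral effectors 5 of 7 fell, led by Rsad2 (viperin) at -2.11 ± 0.22. Of the GTPases 6 of 8 fell, with Iigp1 at -2.55 ± 0.31 and Gbp2 at -2.38 ± 0.21. Their relative Gbp3 was the one gene that rose, with 22.4, 25.1 and 23.5 FPKM in WT GMP, against 15.9, 14.1 and 14.6 FPKM in WT LSK (0.64 ± 0.18, adjusted p = 0.00595). Ifi47 and Ly6e had log2 fold changes of -0.20 ± 0.14 and 0.01 ± 0.13, neither of which passed. Of the 37 calls, 32 passed under every alternative that kept all libraries of WT GMP and WT LSK. Quantile normalization moved the median of all genes to 0.01 and that of the 48 genes to -0.96.

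Flt3-ITD alone changed few of these genes in LSK, and the ones that rose were GTPases. Of the 48 genes 3 rose and 3 fell, against 14.9% of all genes higher and 7.27% lower, and their median log2 fold change was -0.05, against 0.08 over all genes. Igtp, an immunity-related GTPase, had 43.4, 50.2 and 39.9 FPKM in ITD LSK, against 19.9, 16.9 and 21.6 FPKM in WT LSK (1.15 ± 0.14, limma adjusted p = 0.000671). Irgm2, a relative on the same chromosome that is thought to hold other such GTPases back, had 10.4, 8.74 and 6.45 FPKM in ITD LSK, against 5.25, 3.21 and 4.88 FPKM in WT LSK (0.81 ± 0.23). Gbp7, a guanylate-binding protein, had 21.4, 28.03 and 24.8 FPKM in ITD LSK, against 15.2, 13.8 and 17.7 FPKM in WT LSK (0.63 ± 0.11). For these 3 of the 48 genes every ITD library lay above every WT library, against 25.8% of all genes, and they are the 3 GTPases whose promoters are printed above.

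The genes that fell in ITD LSK came from other roles, except for 1 GTPase. Gbp2 had 7.28, 13.1 and 8.38 FPKM in ITD LSK, against 15.9, 16.8 and 18.7 FPKM in WT LSK (-0.81 ± 0.18). Rtp4 fell by 0.92 ± 0.27 and Rsad2 by 0.78 ± 0.24, both with no overlap between the groups. The transducers did not pass, with Stat2 at 0.51 ± 0.26, Irf9 at -0.40 ± 0.20 and Irf7 at 0.20 ± 0.35. Igtp, Gbp7 and Gbp2 passed under every alternative tried, and 3 genes passed in all without WT LSK replicate 2.

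In GMP, 5 genes rose with Flt3-ITD and none of the 43 tested fell, against 7.37% and 3.32% of all genes. Their median log2 fold change was 0.16, against 0.07 over all genes. Gbp7 had 31.8, 17.9 and 17.2 FPKM in ITD GMP, against 7.71, 9.69 and 10.6 FPKM in WT GMP (1.13 ± 0.23, limma adjusted p = 0.0143). Here ITD replicate 1 was the highest of its group. Lgals3bp, a secreted partner of galectins, had 68.5, 65.9 and 82.3 FPKM in ITD GMP, against 43.1, 39.2 and 42.0 FPKM in WT GMP (0.78 ± 0.10, adjusted p = 0.00108). Gbp3 rose by 0.58 ± 0.14, the ubiquitin ligase Trim25, which modifies RIG-I, by 0.48 ± 0.14 and the nucleotide hydrolase Samhd1 by 0.45 ± 0.10. In all 5 the ITD and WT libraries did not overlap, which held for 10 of the 43 genes in this direction and 21.8% of all genes. Irf7 had 4.47, 19.1 and 17.5 FPKM in ITD GMP, against 5.78, 2.75 and 3.21 FPKM in WT GMP, and did not pass (1.42 ± 0.46, adjusted p = 0.0714). Irf9 and Stat2, at 0.19 ± 0.32 and 0.48 ± 0.18, did not pass either. Without ITD GMP replicate 1, 16 genes rose and none fell, while 2 rose without ITD GMP replicate 3, WT GMP replicate 2 or WT GMP replicate 3. With sex as a covariate 1 gene, Lgals3bp, passed.

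The effect of Flt3-ITD differed between GMP and LSK for 4 of the 48 genes, by a test of the difference itself over all 24 libraries. It was higher in GMP for 3 genes, against 6.45% of all genes, and lower for 1, against 7.10%. In neither direction was the share of the 48 above that of all genes. The median difference was 0.30, against 0.00 over all genes. For Gbp2 the log2 fold change of ITD over WT was 0.70 ± 0.23 in GMP and -0.81 ± 0.18 in LSK (difference 1.51 ± 0.30, limma adjusted p = 0.00468). For Lgals3bp it was 0.78 ± 0.10 in GMP and 0.07 ± 0.10 in LSK (difference 0.71 ± 0.14). Samhd1 had a difference of 0.53 ± 0.15 and Igtp one of -0.65 ± 0.21. Gbp2 and Lgals3bp passed under every alternative. The count was 14, all higher, without ITD GMP replicate 1, and 9, all higher, without ITD replicate 1 of both populations. It was 2 without ITD GMP replicate 3, ITD LSK replicate 1, WT GMP replicate 2, WT GMP replicate 3 or WT LSK replicate 2.

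With the Ern1 genotype alone, few of the genes or none passed. In LSK, 2 of 48 rose and none fell, against 21.0% of all genes higher and 2.72% lower, with a median of 0.10 against 0.14 over all genes. Cmpk2, a mitochondrial nucleotide kinase encoded beside Rsad2, had 17.8, 17.1 and 17.1 FPKM in IRE1_KO LSK, against 10.7, 8.23 and 11.5 FPKM in WT LSK (0.73 ± 0.22, limma adjusted p = 0.0349). Igtp rose by 0.43 ± 0.14, with 30.8, 22.6 and 26.7 FPKM in IRE1_KO LSK. In all, 6 of the 48 genes had every IRE1_KO library above every WT library and 3 had every one below, against 29.7% and 6.25% of all genes. Neither call held under every alternative: quantile normalization moved the median of all genes to -0.08 and a median-ratio size factor moved it to -0.03, each with 1 gene lower and none higher, and no gene passed with sex as a covariate or without the filter on low values. The median of the 48 genes was -0.11 and -0.09 under those scalings. No gene passed without IRE1_KO LSK replicate 1, IRE1_KO LSK replicate 3 or WT LSK replicate 2, and 1 passed without IRE1_KO LSK replicate 2 or WT LSK replicate 1. These 3 IRE1_KO libraries are the ones with the 1ng tag, which cannot be told apart from the genotype in LSK.

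In GMP none of the 43 tested genes passed between IRE1_KO and WT by limma, against 0.0267% of all genes higher and 0.507% lower. At an unadjusted p under 0.05 there was 1 of the 43 genes, lower, against 1351 of all 11249 genes tested. The median was 0.02, against 0.08 over all genes. The smallest p was that of the exonuclease gene Isg20, with 8.65, 7.07 and 9.34 FPKM in IRE1_KO GMP, against 13.7, 13.3 and 17.5 FPKM in WT GMP (-0.76 ± 0.24, adjusted p = 0.305). Bst2 and Trim25 followed, at -0.37 ± 0.17 and 0.25 ± 0.14. Isg20, Bst2 and Rtp4 had every IRE1_KO library below every WT library, 3 of the 43 genes against 7.81% of all genes.

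The double mutant held most of the genes low in LSK. Compared with ITD LSK, none of the 48 rose and 32 fell in IRE1_KO_ITD LSK, against 13.3% of all genes higher and 6.96% lower. The median log2 fold change was -0.84, against 0.06 over all genes. For 35 of the 48 every IRE1_KO_ITD library lay below every ITD library, which held for 16.4% of all genes, and the 16 that did not pass included 5 GTPases, 4 RNA sensors and 3 genes of the ISG15 group. Without ITD LSK replicate 1, 35 genes fell, and 21 without ITD LSK replicate 2. Under the alternatives that kept all libraries of the 2 groups, 24 of the 32 passed every time.

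Ifi27l2a had the lowest fold change of the 48. It had 10.8, 12.7 and 13.2 FPKM in IRE1_KO_ITD LSK, against 56.7, 335 and 339 FPKM in ITD LSK (-3.83 ± 0.57, limma adjusted p = 0.00217). Even the low ITD replicate 1 lay above all 3 double mutant libraries. Its neighbour Ifi27 had 66.2, 89.6 and 74.6 FPKM in IRE1_KO_ITD LSK, against 103, 262 and 229.9 FPKM in ITD LSK (-1.26 ± 0.28). Ifi44 had 0.502, 1.33 and 1.203 FPKM in IRE1_KO_ITD LSK, against 5.82, 18.6 and 12.4 FPKM in ITD LSK (-2.62 ± 0.33). Rtp4 stood at nearly the same value in each double mutant library, 6.05, 6.23 and 6.004 FPKM, against 18.9, 41.01 and 32.4 FPKM in ITD LSK (-2.10 ± 0.27). In all, 10 of the 11 genes outside the named roles fell, and Lgals3bp did not pass at -0.19 ± 0.10.

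Among the transducers Irf7 had 8.13, 7.59 and 10.8 FPKM in IRE1_KO_ITD LSK, against 25.1, 86.9 and 61.2 FPKM in ITD LSK (-2.42 ± 0.35, adjusted p = 0.00205). Irf9, the DNA-binding partner of STAT2, fell by 0.83 ± 0.20, and Stat2 did not pass at -0.53 ± 0.26. Of the RNA sensors, 2 of 6 fell. Zbp1, a sensor of left-handed nucleic acid that can start cell death, had 1.67, 1.76 and 1.71 FPKM in IRE1_KO_ITD LSK, against 8.69, 20.7 and 12.2 FPKM in ITD LSK (-2.38 ± 0.26). Dhx58, the regulator LGP2, fell by 1.23 ± 0.23. Ddx58 and Ifih1, the receptors that LGP2 regulates, overlapped between the groups at -0.13 ± 0.19 and -0.33 ± 0.15.

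Most genes of the OAS, IFIT and other antiviral groups fell. All 5 OAS genes fell, by 0.94 to 1.57, and Oas1a had 10.1, 12.3 and 14.1 FPKM in IRE1_KO_ITD LSK, against 20.96, 48.4 and 42.2 FPKM in ITD LSK. Ifit3 had 0.244, 0.243 and 0.472 FPKM in IRE1_KO_ITD LSK, against 1.65, 4.69 and 3.41 FPKM in ITD LSK (-1.62 ± 0.27). Of the 7 other antiviral effectors 6 fell, among them Mx1 by 1.74 ± 0.36, Mx2 by 1.32 ± 0.29 and Rsad2 by 0.95 ± 0.24. The abundant Bst2 had 87.3, 73.02 and 72.5 FPKM in IRE1_KO_ITD LSK, against 103, 171 and 159 FPKM in ITD LSK (-0.86 ± 0.16). The ISG15 group was split: its modifier and protease fell and its ADP-ribosylation genes did not pass. Isg15 had 6.395, 8.64 and 6.72 FPKM in IRE1_KO_ITD LSK, against 18.7, 47.6 and 30.3 FPKM in ITD LSK (-1.92 ± 0.26), and Usp18 fell by 2.07 ± 0.27. Parp9, Dtx3l and Parp14 stood at -0.23 ± 0.19, 0.01 ± 0.18 and -0.19 ± 0.21.

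**Figure D2:**
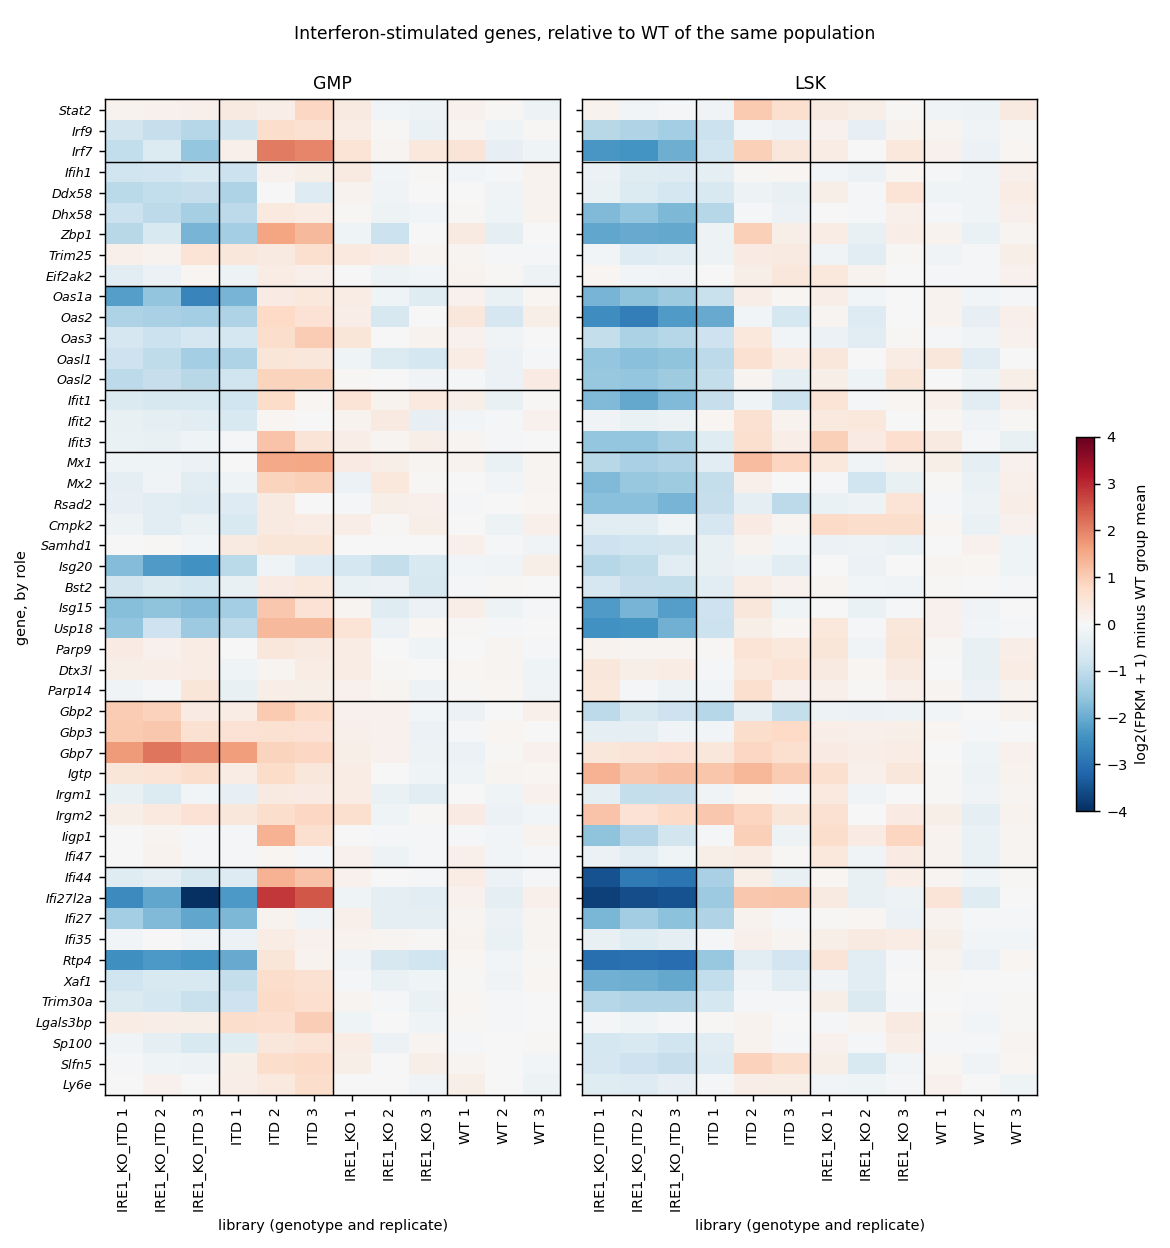
Each of the 48 genes (rows, grouped by role) in each library (columns, genotype and replicate), as log2(FPKM + 1) minus the mean of the 3 WT libraries of the same population, GMP left and LSK right. Ifi27l2a, Ifi44 and Rtp4 are darkest blue in the 3 IRE1_KO_ITD LSK libraries, Igtp and Irgm2 are red there, and the ITD 1 column is bluer than ITD 2 and ITD 3 in both panels.

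The double mutant was also low against IRE1_KO in LSK. Here 1 gene rose and 35 of 48 fell, against 11.7% of all genes higher and 19.6% lower, with a median of -0.88 against -0.04 over all genes. For 38 genes every IRE1_KO_ITD library lay below every IRE1_KO library, against 26.8% of all genes. Both comparisons use the same IRE1_KO_ITD libraries and so are not independent, and the IRE1_KO libraries carry the 1ng tag. Leaving out any 1 library of the 2 groups left 30 to 34 genes called.

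Ifi27l2a had 202, 129 and 138 FPKM in the 3 IRE1_KO LSK libraries that the double mutant is compared with (-3.55 ± 0.57, limma adjusted p = 0.000903). Ifi44 had 16.5, 12.6 and 19.0 FPKM and Rtp4 had 80.9, 42.2 and 54.8 FPKM in IRE1_KO LSK, with log2 fold changes of -3.09 ± 0.33 and -3.04 ± 0.27. Irf7 fell by 2.47 ± 0.35, Zbp1 by 2.13 ± 0.26 and Usp18 by 2.52 ± 0.27. All 5 OAS genes, all 3 IFIT genes and all 7 other antiviral effectors fell, with Oas2 at -2.36 ± 0.39, Ifit3 at -2.14 ± 0.27 and Rsad2 at -1.77 ± 0.24. The sensors split as before, with Dhx58, Zbp1 and now Ddx58 lower, and Ifih1, Trim25 and Eif2ak2 (PKR, which halts translation) not past the threshold. Parp9, Dtx3l and Parp14 again did not pass, at -0.17 ± 0.19, 0.07 ± 0.18 and -0.09 ± 0.21.

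The GTPases did not move as 1 group. Against ITD LSK, 3 of the 8 fell in IRE1_KO_ITD LSK: Iigp1 by 1.40 ± 0.31, Gbp3 by 0.76 ± 0.20 and Irgm1 by 0.71 ± 0.17. Igtp had 51.97, 42.1 and 44.8 FPKM in IRE1_KO_ITD LSK, against 43.4, 50.2 and 39.9 FPKM in ITD LSK, and overlapped (0.06 ± 0.14). Against IRE1_KO LSK, with 30.8, 22.6 and 26.7 FPKM, Igtp rose in IRE1_KO_ITD LSK (0.78 ± 0.14, limma adjusted p = 0.00174). It was thus higher in both genotypes with Flt3-ITD than in the matching genotype without it. Gbp7 had 21.4, 22.8 and 23.9 FPKM and Irgm2 10.8, 7.09 and 8.15 FPKM in IRE1_KO_ITD LSK, and neither passed against ITD (-0.11 ± 0.11 and 0.02 ± 0.23) or IRE1_KO (0.21 ± 0.11 and 0.52 ± 0.23). Gbp2 did not pass against ITD, at -0.04 ± 0.18. Against IRE1_KO it fell by 0.64 ± 0.18, and Irgm1, Iigp1 and Ifi47 fell as well.

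The effect of Flt3-ITD on 14 of the 48 genes in LSK was lower with the Ern1 genotype than without it, by the interaction term of the LSK fit, and on none was it higher. Over all genes 5.58% had a lower and 1.36% a higher effect. The median of the term was -0.81, against -0.14 over all genes. With quantile normalization the median was -0.68 for the 48 genes and 0.02 for all genes. For Zbp1 the log2 fold change was -2.13 ± 0.26 for IRE1_KO_ITD over IRE1_KO and 0.32 ± 0.26 for ITD over WT (difference -2.46 ± 0.37, limma adjusted p = 0.00656). For Irf7 the pair was -2.47 ± 0.35 and 0.20 ± 0.35 (difference -2.67 ± 0.49), and for Ifi27l2a -3.55 ± 0.57 and 0.24 ± 0.57 (difference -3.79 ± 0.80). The other 11 were Dhx58, Oas1a, Ifit1, Ifit3, Isg15, Usp18, Iigp1, Ifi44, Ifi35, Rtp4 and Xaf1. Irf7, Zbp1, Ifit3, Isg15, Usp18, Ifi44 and Rtp4 passed whichever library was left out. The count was 32 without ITD LSK replicate 1, and 7 or 8 without IRE1_KO_ITD LSK replicate 2, ITD LSK replicate 3 or WT LSK replicate 2. With sex as a covariate 1 gene, Zbp1, passed. All ITD libraries were female, and all IRE1_KO LSK libraries carry the 1ng tag, so that the term cannot be told apart from the tag.

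In GMP few genes passed between the double mutant and ITD, and the count turned on the low ITD library. Against ITD GMP, 5 of the 43 tested genes fell and none rose, against 0.916% of all genes in each direction. The median was -0.54, against 0.07 over all genes. Irf7 had 1.39, 2.28 and 0.641 FPKM in IRE1_KO_ITD GMP, against 4.47, 19.1 and 17.5 FPKM in ITD GMP (-2.44 ± 0.46, limma adjusted p = 0.0281). Isg20 had 3.74, 2.28 and 1.95 FPKM in IRE1_KO_ITD GMP, against 6.399, 13.1 and 9.997 FPKM in ITD GMP (-1.55 ± 0.24). The groups did not overlap for these genes, nor for Bst2, Lgals3bp and Samhd1, which fell by 0.83 ± 0.17, 0.51 ± 0.10 and 0.48 ± 0.10. Ifi27l2a had 6.95, 10.02 and 1.23 FPKM in IRE1_KO_ITD GMP, against 8.502, 329.6 and 260.2 FPKM in ITD GMP. It did not pass (-4.01 ± 1.12, adjusted p = 0.102), and ITD replicate 1 lay within the double mutant's range. In all, 13 of the 43 genes had every IRE1_KO_ITD library below every ITD library, against 5.49% of all genes.

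Without ITD GMP replicate 1, 28 genes passed in that comparison, 1 higher and 27 lower. That library was singled out by its low values for these same genes, so the larger count is no support. Without ITD GMP replicate 2 or 3 none passed, and 1 or 2 passed without any 1 of the IRE1_KO_ITD GMP libraries. None passed with sex as a covariate or in a fit of these 6 libraries alone.

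Against IRE1_KO GMP, 4 of the 43 genes rose and 5 fell in IRE1_KO_ITD GMP, against 8.47% of all genes higher and 4.50% lower. The median was -0.49, against 0.08 over all genes, and 23 genes had every double mutant library below every IRE1_KO library, against 10.5% of all genes. Oas1a had 4.03, 6.78 and 2.71 FPKM in IRE1_KO_ITD GMP, against 27.9, 19.6 and 15.6 FPKM in IRE1_KO GMP (-2.03 ± 0.53, limma adjusted p = 0.0316). Rtp4 had 0.178, 0.323 and 0.236 FPKM in IRE1_KO_ITD GMP, against 4.89, 3.09 and 2.72 FPKM in IRE1_KO GMP (-1.85 ± 0.50). Ifi27 fell by 1.57 ± 0.42, Isg20 by 1.38 ± 0.24 and Ddx58 by 0.99 ± 0.25. The genes that rose were 3 GTPases and Lgals3bp. Gbp7 had 32.5, 44.01 and 37.2 FPKM in IRE1_KO_ITD GMP, against 11.1, 10.7 and 7.82 FPKM in IRE1_KO GMP (1.85 ± 0.23, adjusted p = 0.000924). Gbp3 rose by 0.88 ± 0.14, Igtp by 0.54 ± 0.15 and Lgals3bp by 0.38 ± 0.10.

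This comparison does not contain ITD replicate 1, yet the shared estimate of the spread does. In a fit of the 6 libraries compared 3 genes rose and 18 fell, and with the spread estimated without ITD replicate 1, an alternative added after the data were seen, 5 rose and 20 fell. Between 3 and 5 genes passed when any 1 of the 6 libraries, replicates 1 to 3 of IRE1_KO_ITD GMP and of IRE1_KO GMP, was left out. Gbp7, Gbp3 and Isg20 passed under every alternative. The interaction term of the GMP fit passed for none of the 43 genes and for 0.00% of all genes in either direction. At an unadjusted p under 0.05 it was higher for 1 member and lower for 13, with no share of all genes at that threshold given beside them. Its median was -0.50, against 0.01 over all genes. The smallest p values were those of Irf7 (-2.80 ± 0.65, limma adjusted p = 0.215), Samhd1 (-0.50 ± 0.15) and Mx1 (-1.43 ± 0.48). Without ITD GMP replicate 1 it passed for 13, all lower.

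**Figure D3:**
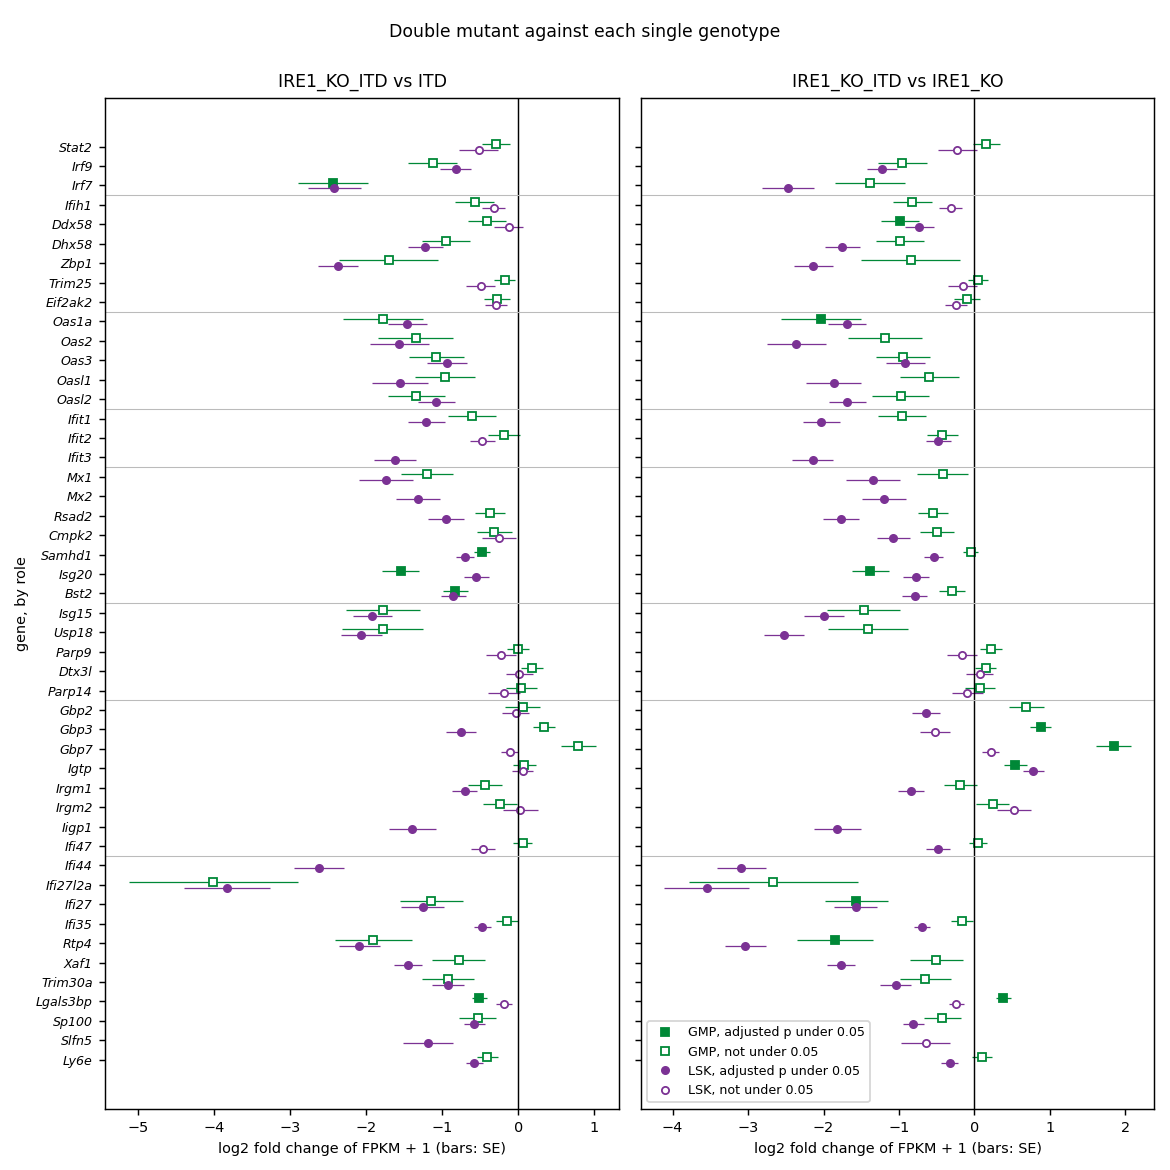
Log2 fold change of FPKM + 1 (x axis, bars are SE of the limma fit) for each gene, by role, in IRE1_KO_ITD over ITD (left) and over IRE1_KO (right), in GMP (squares) and LSK (circles), filled where the adjusted p is under 0.05. Ifi27l2a in LSK lies at -3.83 and -3.55, and Gbp7 in GMP lies at 1.85 over IRE1_KO.

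**Figure D4:**
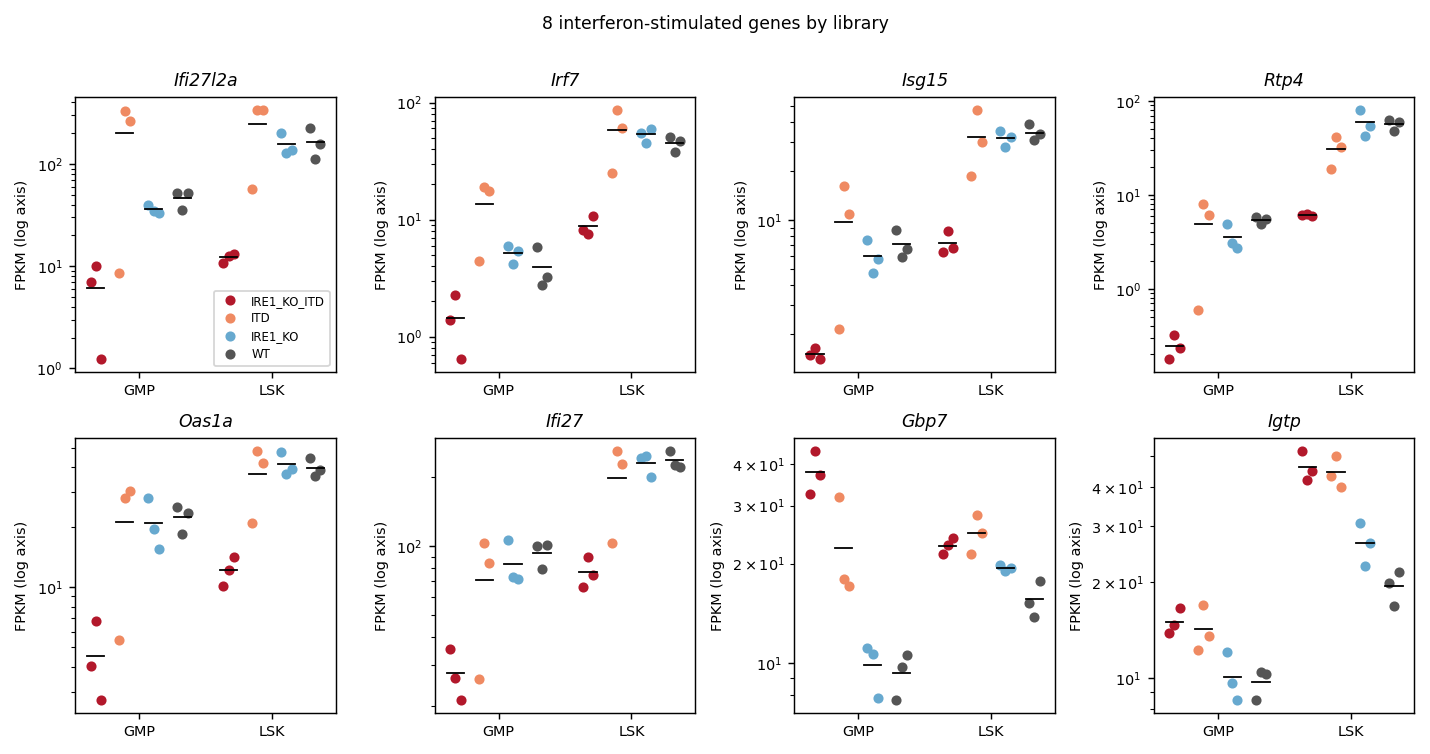
FPKM on a log axis of 8 of the genes in each library (points), coloured by genotype, with the group mean as a line, GMP left and LSK right. The 3 IRE1_KO_ITD libraries are lowest for Rtp4 in both populations, at 0.178 to 0.323 FPKM in GMP and 6.00 to 6.23 FPKM in LSK, and are the 3 highest for Gbp7 in GMP, at 32.5 to 44.0 FPKM.

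The genes upstream of the response were looked at through 43 other genes of the pathway, interferon genes included, of which 32 were tested in LSK and 31 in GMP. None of the 8 interferon genes looked at, Ifnb1, Ifng, Ifnk, Ifne, Ifna1, Ifna2, Ifna4 and Ifna5, reached 1 FPKM in any library. The highest was Ifnb1 at 0.751 FPKM, and other alpha interferon genes were not looked at. The receptor genes Ifnar1 and Ifnar2 were present throughout, at 5.37 to 10.5 FPKM and 58.9 to 95.7 FPKM. In IRE1_KO_ITD LSK against ITD LSK, 2 of the 32 rose and 3 fell, against 13.3% of all genes higher and 6.96% lower. The inhibitor Socs1, which blocks the JAK kinases, had 10.1, 8.23 and 14.3 FPKM in IRE1_KO_ITD LSK, against 3.42, 3.52 and 2.98 FPKM in ITD LSK (1.43 ± 0.22, limma adjusted p = 0.00238). Jak1 rose by 0.66 ± 0.11. Irf8, which directs monocyte and dendritic cell fate, had 22.5, 17.95 and 30.2 FPKM in IRE1_KO_ITD LSK, against 29.5, 134 and 172 FPKM in ITD LSK (-1.89 ± 0.51), and ITD replicate 1 was again the low one. Irf5 fell by 0.68 ± 0.18 and the RNA receptor Tlr7 by 0.83 ± 0.21. Irf1 did not pass at -0.07 ± 0.15.

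In IRE1_KO_ITD LSK against IRE1_KO LSK, 2 of the 32 pathway genes rose and 9 fell, against 11.7% of all genes higher and 19.6% lower. Tlr7 fell by 1.503 ± 0.21, Jak2 by 1.31 ± 0.16 and the interferon gamma receptor gene Ifngr1 by 0.81 ± 0.13. In IRE1_KO LSK against WT LSK 9 of the 32 rose and none fell, against 21.0% of all genes higher and 2.72% lower, led by Socs1 at 1.99 ± 0.22, Ifngr2 at 1.02 ± 0.15 and Jak2 at 0.99 ± 0.16. In ITD LSK against WT LSK 7 of the 32 rose and 2 fell, against 14.9% of all genes higher and 7.27% lower, with Irf5 at 0.85 ± 0.18 and Socs1 at 0.82 ± 0.22, while Irf1, at -0.13 ± 0.15, did not pass.

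In ITD GMP against WT GMP 6 of the 31 pathway genes rose and 1 fell, against 7.37% of all genes higher and 3.32% lower. Irf8 had 265, 255 and 312 FPKM in ITD GMP, against 128, 107 and 102 FPKM in WT GMP (1.30 ± 0.13, limma adjusted p = 0.000399), Irf5 rose by 1.502 ± 0.16 and Ifngr1 fell by 0.81 ± 0.12. Irf1 did not pass, at -0.07 ± 0.17. In IRE1_KO_ITD GMP against IRE1_KO GMP 5 of the 31 rose and 2 fell, against 8.47% of all genes higher and 4.50% lower, with Irf8 at 0.75 ± 0.13 and Mavs, the adaptor of the RNA sensors, at 0.64 ± 0.18. None of the 31 passed in IRE1_KO_ITD against ITD in GMP, where 0.916% of all genes passed in each direction, or in IRE1_KO against WT in GMP, where 0.0267% passed as higher and 0.507% as lower. In each of these comparisons limma gave 8 of them an unadjusted p under 0.05. Of all 11249 genes tested, 2039 had one in IRE1_KO_ITD against ITD and 1351 in IRE1_KO against WT. The interaction term passed for 3 of the 32 in LSK, all lower, against 5.58% of all genes lower and 1.36% higher, with Jak2 at -1.06 ± 0.23. It passed for none of the 31 in GMP, against 0.00% of all genes. There 6 of the 31 had an unadjusted p under 0.05, with no share of all genes given beside that count. The ITD effect differed between GMP and LSK for 4 of 33, 2 in each direction, against 6.45% of all genes higher and 7.10% lower, with Irf2 at 1.16 ± 0.18 and Ifngr1 at -0.57 ± 0.18. Between WT GMP and WT LSK 5 of the 33 rose and 10 fell, against 19.0% of all genes higher and 31.3% lower, with Ifngr1 higher by 1.89 ± 0.12, Irf8 higher by 1.81 ± 0.40, and Socs3 and Irf2 lower at -2.74 ± 0.64 and -2.02 ± 0.12. Irf1 fell by 0.94 ± 0.17 there.

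Marker sums of several other cell types were low in IRE1_KO_ITD LSK, while that of megakaryocytes was not low against ITD LSK. Plasmacytoid dendritic cells are the chief makers of type I interferon, and their 6 markers summed to 0.306 to 0.861 FPKM in IRE1_KO_ITD LSK, with Siglech and Klk1 at 0 in all 3 libraries. They summed to 1.42, 28.0 and 26.5 FPKM in ITD LSK replicates 1, 2 and 3, to 72.2 to 89.1 FPKM in IRE1_KO LSK and to 46.0 to 85.1 FPKM in WT LSK, with none of the 6 at 0 in all 3 libraries of these groups. Ly6d was most of the WT LSK sums, at 63.0, 30.6 and 28.5 FPKM. It was at 16.4 and 15.9 FPKM in ITD LSK replicates 2 and 3. Ccr9 was at 0.176, 0.0846 and 0.0810 FPKM in IRE1_KO_ITD LSK, above ITD LSK replicate 1 at 0.0507 FPKM. Against that replicate Pacsin1 overlapped, Klk1 was at 0 in both, and Siglech, Cox6a2 and Ly6d were lower in the double mutant. The 7 markers of late neutrophils summed to 88.3 to 316 FPKM in IRE1_KO_ITD LSK, 376 to 1926 FPKM in ITD, 3753 to 9734 FPKM in IRE1_KO and 3867 to 8079 FPKM in WT. The 7 erythroid markers summed to 11.3 to 15.1 FPKM in IRE1_KO_ITD, 8.20 to 106 FPKM in ITD, 501 to 1112 FPKM in IRE1_KO and 294 to 732 FPKM in WT LSK. B cell markers, 7 in all, summed to 29.0 to 35.8 FPKM in IRE1_KO_ITD, 40.3 to 61.2 FPKM in ITD, 163 to 194 FPKM in IRE1_KO and 122 to 205 FPKM in WT LSK. The 8 markers of T and NK cells summed to 0.776 to 0.960 FPKM in IRE1_KO_ITD, 1.55 to 7.31 FPKM in ITD, 4.11 to 6.73 FPKM in IRE1_KO and 5.54 to 7.09 FPKM in WT LSK. The 7 monocyte markers summed to 56.1 to 182 FPKM in IRE1_KO_ITD, 223 to 424 FPKM in ITD, 144 to 377 FPKM in IRE1_KO and 112 to 352 FPKM in WT LSK. The 6 markers of conventional dendritic cells, 1 of them Flt3, summed to 68.3 to 77.2 FPKM in IRE1_KO_ITD, 57.9 to 80.4 FPKM in ITD, 193 to 221 FPKM in IRE1_KO and 146 to 163 FPKM in WT LSK. Flt3 alone, also an LSK marker, was at 67.6, 68.2 and 76.1 FPKM in IRE1_KO_ITD LSK, nearly the whole sum. In ITD LSK replicates 1, 2 and 3 it was at 55.2, 58.7 and 53.2 FPKM, against sums of 57.9, 80.4 and 75.6 FPKM. The overlap of the sums with ITD therefore does not hold for the other markers of the set. The 5 megakaryocyte markers summed to 47.5 to 55.15 FPKM in IRE1_KO_ITD, 32.8 to 39.7 FPKM in ITD, 50.1 to 88.5 FPKM in IRE1_KO and 56.55 to 88.8 FPKM in WT LSK, and were higher in the double mutant than in ITD. Their part in the result was not tested.

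In GMP the plasmacytoid markers summed to 1.22 to 1.77 FPKM in IRE1_KO_ITD, to 2.88, 5.43 and 2.83 FPKM in ITD replicates 1, 2 and 3 with Pacsin1 at 0 in all of them, to 15.7 to 40.0 FPKM in IRE1_KO and to a median of 23.97 and at most 41.96 FPKM in WT. ITD GMP replicates 2 and 3, with Ifi27l2a at 329.6 and 260.2 FPKM, had lower sums of these markers than every WT GMP library, where Ifi27l2a was at 51.7, 35.2 and 52.4 FPKM. Most of the WT GMP sums came from 1 marker, Ly6d, at 9.41, 39.5 and 22.4 FPKM, against 2.30 and 0.699 FPKM in ITD GMP replicates 2 and 3. The lower sums do not hold for each marker. Siglech was at 0.285 and 0.156 FPKM in those ITD replicates, against 0.292, 0.149 and 0.224 FPKM in WT GMP. Ccr9 was at 0.456 and 0.272 FPKM, against 0.193, 0.135 and 0.0717 FPKM in WT GMP. The late neutrophil markers summed to 1135 to 12520 FPKM in IRE1_KO_ITD GMP, to 1816, 79080 and 29150 FPKM in ITD GMP replicates 1, 2 and 3, to 14390 to 68350 FPKM in IRE1_KO and to 35190 to 51610 FPKM in WT GMP. The erythroid markers summed to 0.398 to 16.6 FPKM in IRE1_KO_ITD GMP, 2.91 to 73.7 FPKM in ITD, 222 to 594 FPKM in IRE1_KO and 65.2 to 466 FPKM in WT GMP. Conventional dendritic markers summed to 21.5 to 29.05 FPKM in IRE1_KO_ITD, 31.1 to 38.8 FPKM in ITD, 5.35 to 14.5 FPKM in IRE1_KO and 5.696 to 14.3 FPKM in WT GMP. The sums were lower in the double mutant than in ITD but higher than in the other groups. Flt3 alone was at 20.2, 25.5 and 28.5 FPKM in IRE1_KO_ITD GMP, against sums of 21.5, 28.2 and 29.05 FPKM. In WT GMP it was at 4.54, 12.8 and 10.5 FPKM, against sums of 5.696, 14.3 and 11.4 FPKM. Flt3 was also most of each IRE1_KO GMP sum. The higher sums than in IRE1_KO and WT therefore do not hold for the other markers of the set. Monocyte markers overlapped between the double mutant and each other group, at 2664 to 5352 FPKM in IRE1_KO_ITD, 2545 to 4964 FPKM in ITD, 3174 to 3814 FPKM in IRE1_KO and 3962 to 4215 FPKM in WT GMP. Megakaryocyte markers summed to 7.24 to 10.85 FPKM in IRE1_KO_ITD, 6.08 to 19.7 FPKM in ITD, 23.96 to 128 FPKM in IRE1_KO and 39.7 to 77.3 FPKM in WT GMP. B cell markers summed to 40.3 to 41.8 FPKM in IRE1_KO_ITD, 44.6 to 53.1 FPKM in ITD, 80.7 to 221 FPKM in IRE1_KO and 73.2 to 182 FPKM in WT GMP. T and NK markers summed to 0.433 to 0.992 FPKM in IRE1_KO_ITD, 0.651 to 1.802 FPKM in ITD, 1.08 to 1.84 FPKM in IRE1_KO and 1.18 to 2.05 FPKM in WT GMP. Here too their part in the low values of IRE1_KO_ITD GMP and ITD replicate 1 was not tested.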

How the data were processed

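RNA of 24 libraries was sequenced by the authors, 3 in each of 8 groups, and the deposited values are FPKM per gene for 23991 symbols. STAR, Cufflinks and the build mm10 are named per the submitters' processing notes, with versions not given in the sources used here. Read totals were not stated either, so that the depth of each library is unknown and no counting interval is given. The library kit differs between the protocol and the series text and was not settled.

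The FPKM were taken as deposited, with a pseudocount of 1, on the log2 scale. Genes with 1 FPKM or more in at least 3 libraries of a fit were tested with limma 3.58.1 (R 4.3.3), with a mean-variance trend and Benjamini-Hochberg adjustment over all tested genes of a comparison, and a threshold of 0.05. One fit held the 12 libraries of LSK, another the 12 of GMP and a last one all 24 for comparisons between populations, so that a library can enter the spread of a comparison it is not part of. Values are log2 fold changes ± SE unless said otherwise. Tables and figures were made with Python 3.11.15, numpy 2.4.6, pandas 2.3.3 and matplotlib 3.10.9, and the fit was tested on simulated data.

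The genes and lists were chosen with earlier results of these data known. Named genes were, per comparison and role, up to 3 that passed with the largest change (all where 10 or fewer passed, the 3 smallest p where none did), the most abundant gene of each role, Stat2, Irf9 and Irf7, and up to 6 pathway genes that passed; other genes were named after their values were seen. A pathway gene that the rule covers is not reported here by name. Alternatives were a replicate block, 0.1 as the pseudocount, quantile normalization, scaling by a median-ratio size factor, testing without the filter, only the groups compared, sex as a covariate, leaving out the 1ng-tagged libraries, and leaving out each library in turn. Leaving out ITD replicate 1 of both populations, and estimating the spread without it, were added after the data were seen.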

Additional observations from a re-analysis of the deposited data

Results flagged for a closer look

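In LSK the effect of Flt3-ITD differed between libraries with and without the Ern1 genotype for 14 of the 48 genes, by the interaction term of the limma fit, which is why they are listed here. The IRE1_KO libraries in that term all carry the 1ng tag, which it cannot be told apart from. All 14 were lower and none higher, against 5.58% of all genes lower and 1.36% higher, and with sex as a covariate 1 of them, Zbp1, passed. The difference in log2 fold change, IRE1_KO_ITD over IRE1_KO minus ITD over WT, was -2.67 for Irf7, -1.28 for Dhx58 and -2.46 for Zbp1. It was -1.51 for Oas1a, -1.38 for Ifit1 and -2.28 for Ifit3. Isg15 had -1.81, Usp18 -2.34 and Iigp1 -2.03. Ifi44 had -2.64, Ifi27l2a -3.79 and Ifi35 -0.77, and the values of Rtp4 and Xaf1 were -2.12 and -1.25.

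Between populations the effect of Flt3-ITD differed for 4 of the 48 genes by the same kind of test over all 24 libraries, 3 higher and 1 lower, against 6.45% of all genes higher and 7.10% lower. Neither share of the 48 was above that of all genes. The effect in GMP minus that in LSK was 0.53 for Samhd1, 1.51 for Gbp2, -0.65 for Igtp and 0.71 for Lgals3bp.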

How the results depend on the processing

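No call on a gene changed sign under any alternative run. The number of genes called kept within 1.5 times its value under every alternative for WT GMP over WT LSK (33 to 36 when 1 library was left out, 37 with all) and for IRE1_KO_ITD over IRE1_KO in LSK (30 to 34, against 36). IRE1_KO over WT in GMP gave 0 each time. For the other comparisons, leaving out 1 library gave 21 to 35 genes in IRE1_KO_ITD over ITD in LSK, 0 to 28 in the same comparison in GMP, 3 to 5 in IRE1_KO_ITD over IRE1_KO in GMP, 3 to 9 in ITD over WT in LSK and 2 to 16 in GMP. It gave 0 to 3 in IRE1_KO over WT in LSK, 2 to 14 in the ITD effect in GMP minus LSK, 7 to 32 in the LSK interaction and 0 to 13 in the GMP interaction. Without the filter 3 genes passed in ITD over WT in LSK, 0 in IRE1_KO over WT in LSK, 2 in IRE1_KO_ITD over ITD in GMP and 4 in IRE1_KO_ITD over IRE1_KO in GMP. Quantile normalization gave 1 in IRE1_KO over WT in LSK and 3 in ITD over WT in GMP, and the size factor gave 1 in IRE1_KO over WT in LSK. With sex as a covariate the counts were 3 in ITD over WT in LSK, 0 in IRE1_KO over WT in LSK, 1 in the LSK interaction, 1 in ITD over WT in GMP, 0 in IRE1_KO_ITD over ITD in GMP and 5 in IRE1_KO_ITD over IRE1_KO in GMP. With only the groups compared they were 3 in ITD over WT in LSK, 2 in GMP, 0 in IRE1_KO_ITD over ITD in GMP, 21 in IRE1_KO_ITD over IRE1_KO in GMP and 2 in the ITD effect in GMP minus LSK. Without ITD replicate 1 of both populations the last was 9, and with the spread estimated without that replicate IRE1_KO_ITD over IRE1_KO in GMP gave 25. The cause of these changes was not tested.

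The deviations of libraries of the same number had correlations of -0.34 to 0.24 over all pairs of groups, and the main results use no pairing by number. Between ITD GMP and ITD LSK all 3 were above 0.1, at 0.198, 0.105 and 0.147 for replicates 1, 2 and 3, but between WT GMP and WT LSK they were 0.135, 0.05 and 0.051. With the replicate block 3 genes passed in the ITD effect in GMP minus LSK, and Igtp did not (limma adjusted p = 0.0564). The replicate block gave 0 genes in IRE1_KO_ITD over ITD in GMP and 3 in IRE1_KO_ITD over IRE1_KO in GMP, and kept the other counts within 1.5 times. At a pseudocount of 0.1 the mean level was 1.80 in IRE1_KO_ITD, 2.61 in IRE1_KO and 2.61 in WT GMP, and 2.92 in IRE1_KO_ITD LSK, each more than 1 SD from its value. The size factor moved the median of all genes in ITD over WT in LSK to -0.03, and in the LSK interaction to -0.01. The interactions were not run with only the groups compared, and comparisons with IRE1_KO LSK were not run without the 1ng-tagged libraries.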
